A study of Mus musculus with 19 samples.

Results

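Oxidative phosphorylation is described here through 92 nuclear genes of the mitochondrial respiratory chain and ATP synthase, out of 23458 genes in the deposited count table. The genes were chosen by symbol alone: every name beginning with Ndufa, Ndufb, Ndufc, Ndufs, Ndufv, Uqcr, Cox4 to Cox8 or Atp5, together with Sdha, Sdhb, Sdhc and Sdhd. They comprise 7 core subunits, 29 accessory subunits and 7 assembly factors of complex I, 4 subunits of complex II, 8 of complex III, 12 widely expressed and 8 tissue-restricted subunits of complex IV, 5 subunits of the F1 part and 10 of the Fo part and stalk of ATP synthase, and Atp5s and Atp5sl, which the name pattern admits but which are not subunits. Of the 92 genes, 90 had enough counts to be tested among 15508 genes; Cox7b2, with no count in any library, and Cox8c did not.

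In the inner mitochondrial membrane, complexes I and II pass electrons from NADH and succinate to ubiquinone, complex III passes them on to cytochrome c, and complex IV passes them to oxygen. Complexes I, III and IV pump protons while they do so, and ATP synthase makes ATP as protons flow back. Most subunits are encoded in the nucleus, each in its own gene, and are imported; a small set is encoded by mitochondrial DNA, whose genes were not analysed here. Complex IV is unusual in having isoforms made mainly in muscle, lung or testis. In blood-forming tissue the pathway is known for being used sparingly by resting stem cells and more by dividing progenitors and by many acute leukemias.

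PolyA-selected RNA of C57BL/6 mice was sequenced in 17 libraries (19 deposited samples, because each of the 2 WT_GFP libraries was run on the sequencer more than once). In the retroviral model all donors carried the interferon-inducible Mx1-cre transgene. Their marrow was transduced with an MSCV virus, transplanted into lethally irradiated hosts, and CD4+CD8+ cells of the donor were sorted from thymus or marrow. The marrow put into the virus was enriched for Sca-1 for KO_ITD and for ckit for KO_GFP, was Sca-1-enriched, ckit-enriched and whole for WT_ITD 1, 2 and 3, and was not specified per library for WT_GFP. KO_ITD leukemias (n = 4) had Dnmt3a f/f and a virus with FLT3-ITD and GFP, WT_ITD leukemias (n = 3) had Dnmt3a +/+ and that virus, KO_GFP cells (n = 2) had Dnmt3a f/f and a virus with GFP alone, and WT_GFP cells (n = 2) had Dnmt3a +/+ and GFP alone. FLT3-ITD is an internal tandem duplication that keeps the receptor kinase FLT3 active, and Dnmt3a encodes a de novo DNA methyltransferase. In the knock-in model unsorted bulk marrow was taken, and every animal carried Flt3 +/ITD, so the reference carries the duplication too. KI_KO is 1 leukemia with ER-cre and Dnmt3a f/f, KI_HET is 2 leukemias with ER-cre and Dnmt3a f/+, and KI_PRE is 3 pre-leukemic marrows with Dnmt3a f/f but no Cre. All GFP libraries, WT_ITD 1 and 3 and KO_ITD 3 and 4 came from thymus, whereas WT_ITD 2 and KO_ITD 1 and 2 came from marrow. Ages were not given in the labels. The labels call the replicates biological without tying them to animals, so each p-value reflects only how far these libraries spread.

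Library totals ran from 4933890 to 25331908 counts. Dnmt3a transcript, which checks the labels only in part because a floxed exon leaves most of the message, lay at 53.0 to 127 CPM (counts scaled to library size) in KO_ITD, 36.5 CPM in KI_KO and 47.4 to 55.0 CPM in KI_HET; it lay at 180.2 to 238 CPM in WT_ITD, 144 and 207 CPM in KO_GFP, 250.1 and 257 CPM in WT_GFP and 130 to 153 CPM in KI_PRE. It was lower in KO_ITD than in WT_ITD (log2 fold change -1.35, adjusted p = 0.0353), and its log2 fold change of -0.53 in KO_GFP against WT_GFP did not pass. A list of 13 markers of double-positive thymocytes, among them Cd4, Cd8a and Rag1, summed to 4372 to 9856 CPM in KO_ITD, 9832 to 12517 CPM in WT_ITD, 15973 and 18224 CPM in KO_GFP and 16161 and 16667 CPM in WT_GFP. The knock-in libraries held 27.7 to 113 CPM of that list. They held 3047 to 20449 CPM of 13 granulocyte markers, so the 2 models sample different cells. A list of 9 stromal markers reached 590 CPM in KO_ITD 3 and 2570 CPM in KO_ITD 4, against 6.63 and 7.54 CPM in KO_GFP. All GFP libraries expressed Xist, whereas 5 of the 7 retroviral leukemias expressed the Y-linked Ddx3y instead.

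Transcripts of the 92 genes had a higher summed CPM in leukemia in both models. Their summed level was 18126, 12341, 15336 and 10946 CPM in KO_ITD leukemias, against 7882 and 8751 CPM in KO_GFP thymocytes. It was 13266, 11025 and 12299 CPM in WT_ITD leukemias, against 8882 and 8693 CPM in WT_GFP thymocytes. In the knock-in model it was 10705 CPM in the KI_KO leukemia and 13657 and 12806 CPM in KI_HET leukemias, against 9434, 8844 and 9743 CPM in KI_PRE marrow. In none of the 3 pairs did a leukemia overlap its own controls in CPM, and KO_ITD 1 was highest of all. As a share of unscaled counts, the KI_KO leukemia at 1.02426% did overlap, as KI_PRE 3 stood at 1.02438%. KO_ITD 2 and WT_ITD 3, the leukemias that expressed Xist, lay at 12341 and 12299 CPM; the part of sex in these levels was not tested. In such bulk samples, fewer cells of a type and less RNA per cell cannot be told apart.

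**Figure D1:**
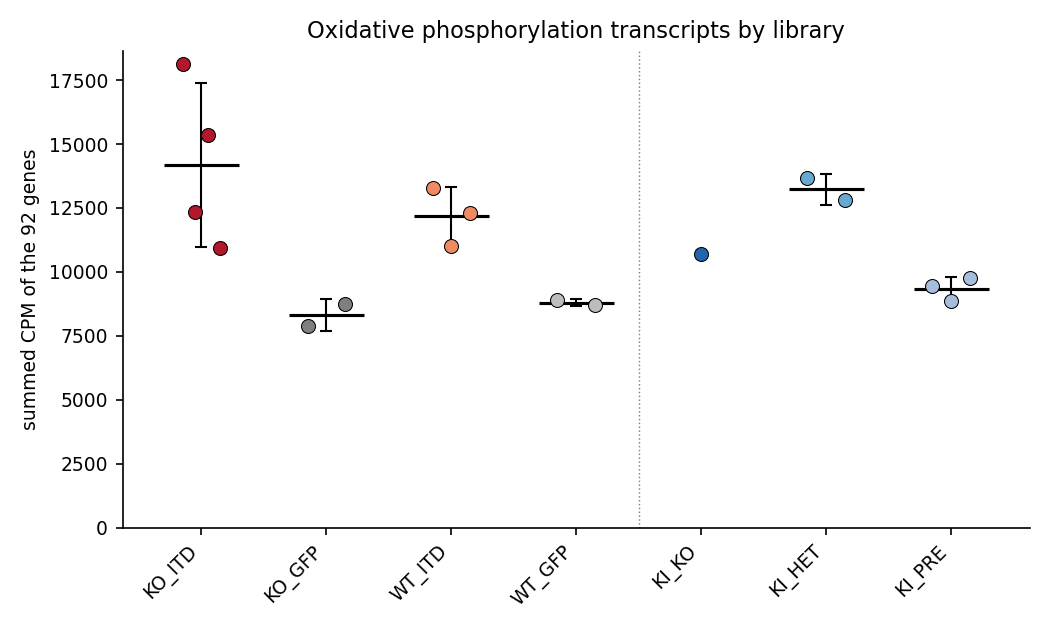
Summed level of the 92 oxidative phosphorylation genes in each library (CPM, points), with the group mean and SD (bars) where a group has more than 1 library. Every retroviral leukemia (10946 to 18126 CPM) lies above every GFP library (7882 to 8882 CPM), and the 3 knock-in leukemias (10705 to 13657 CPM) lie above the 3 pre-leukemic marrows (8844 to 9743 CPM).

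Between genes, levels were compared per kilobase of exon. The catalytic beta and alpha subunits of F1, Atp5b and Atp5a1, averaged 556 and 397 CPM per kilobase over the 7 group means, and Cox4i1, the general form of complex IV subunit 4, averaged 456. These were the 3 highest of the 92. By role, the highest and lowest were Ndufb8 (225) and Ndufa11 (20.5) for the accessory subunits of complex I, Ndufaf2 (23.4) and Ndufaf5 (4.60) for its assembly factors, Sdhd (145) and Sdhc (86.5) for complex II, and Uqcrh (356) and Uqcrfs1 (108) for complex III. For the widely expressed complex IV subunits they were Cox4i1 and Cox7b (132), for F1 Atp5b and Atp5d (145), and for Fo and the stalk Atp5h (377) and Atp5g1 (112), all in CPM per kilobase. Assembly factors, which act on the complex without staying in it, thus averaged from 4.60 to 23.4 CPM per kilobase, and tissue-restricted complex IV subunits from 0 for Cox7b2 to 16.1 for Cox6b2. Atp5sl and Atp5s, whose level is per kilobase as well, averaged 16.4 and 4.26.

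Without the offsets for exon length described below, the largest shift was between leukemia and thymocytes on the Dnmt3a-deleted background. In KO_ITD against KO_GFP, 53 of the 90 tested members rose and none fell, where 19.6% of all tested genes were called in either direction and 9.8% were called higher. The median log2 fold change of the members was 0.79, against 0.19 over all genes, and 88 of 90 were positive, Atp5sl and Sdha being the exceptions, against 56.7% of all genes. Of the members, 66 did not overlap between the groups with KO_ITD higher, which 22.9% of all genes did. A gene was called when its p from edgeR's quasi-likelihood fit, adjusted over all 15508 genes by the Benjamini-Hochberg method, was below 0.05. They spanned every complex: 7 of 8 complex III subunits rose, 10 of 12 widely expressed complex IV subunits, 7 of 10 Fo and stalk subunits, 3 of 5 F1 subunits, 18 of 29 accessory and 4 of 7 core subunits of complex I, and 2 of 4 subunits of complex II. Only 1 of 7 complex I assembly factors, Ndufaf6, passed, and so did 1 of 6 tested tissue-restricted complex IV subunits, Cox4i2. Other cell markers moved in the same comparison: 7 of 13 double-positive thymocyte markers fell and 1 rose, 6 of 13 erythroid markers rose (839 to 2030 CPM summed in KO_ITD, against 157 and 341 CPM in KO_GFP) and 8 of 9 stromal markers rose, while none of 17 cell cycle genes passed; their part in the member counts was not tested.

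Short transcripts had positive fold changes in the whole library, and most members are short. Among genes with under 750 bases of exon, the 560 that are not members had a median log2 fold change of 1.16 in KO_ITD against KO_GFP, and the 47 members of that length 0.90; at 750 to 1500 bases the medians were 0.75 for 2300 other genes and 0.75 for 27 members. With offsets for exon length, an alternative added after this was seen, 11 members rose, where 5.68% of all genes did, and their median became 0.08, against 0.10 over all genes. Those 11 were Atp5l, Uqcrq, Atp5g1, Atp5g2, Ndufv2, Cox7b, Uqcr11, Atp5e, Cox7a2l, Sdhd and Cox4i2. At 1500 to 3000 bases, where 15 members lie, their median was 0.46, against 0.27 for 5559 other genes. Without the offsets, 66% of members and 29.8% of other genes under 750 bases were called higher. At 750 to 1500 bases the shares were 66.7% and 17.4%, and at 1500 to 3000 bases 26.7% and 9.41%. Why the shares called differ was not tested. Why length and fold change go together was not tested. Without KO_GFP 1 or KO_GFP 2, which leaves 1 control library, most of the member calls were lost, and fewer of all genes passed. The median of the members was then 0.66 and 0.93, against 0.18 and 0.24 over all genes. Leaving out KO_ITD 1 left 34 calls, where 15% of all genes were called. A fit of those 6 libraries alone gave 1 call, where 3.38% of all genes were called.

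**Figure D2:**
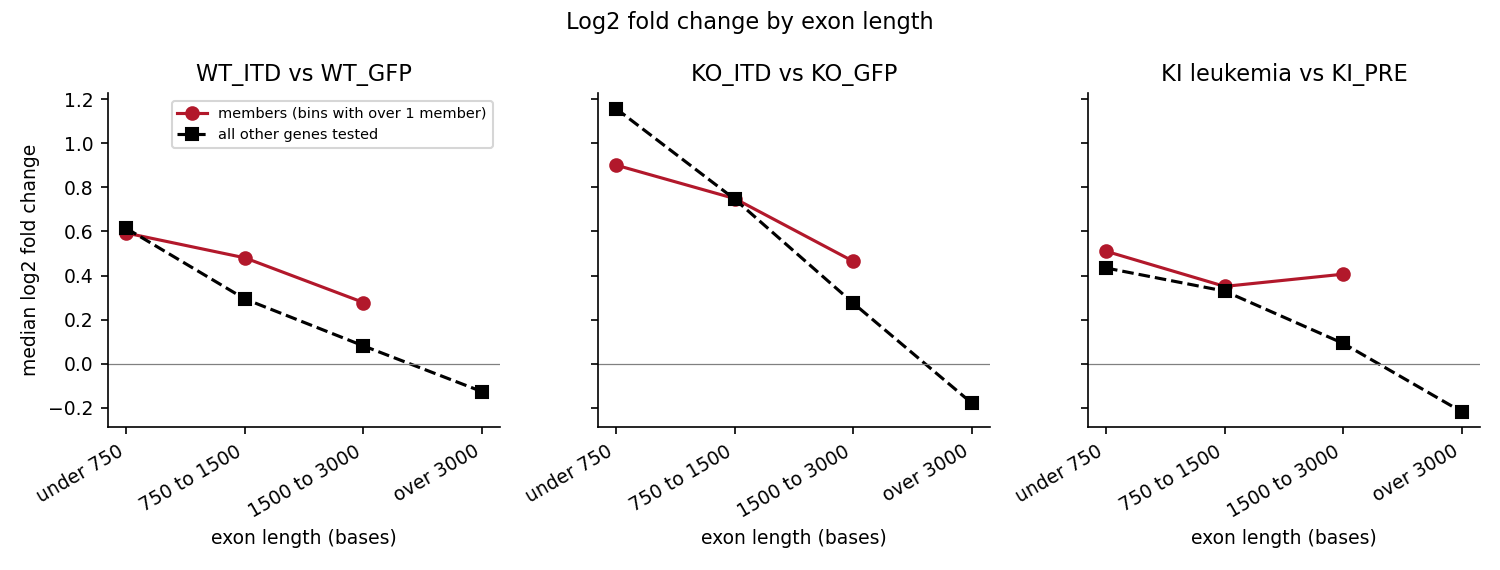
Median log2 fold change (vertical axis) by exon length in bases (horizontal axis) for the members (circles) and for all other tested genes (squares) in 3 comparisons. In KO_ITD against KO_GFP the shortest other genes stand at 1.16 and the shortest members at 0.90, and the bin over 3000 bases, which holds 1 member, shows other genes only.

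Seen by role, the summed level of the 12 widely expressed complex IV subunits was 4973, 3225, 4195 and 3046 CPM per kilobase in KO_ITD leukemias, against 1942 and 2221 in KO_GFP thymocytes. Complex III summed to 2698, 1658, 2362 and 1560.3 CPM per kilobase in KO_ITD, against 915 and 1065 in KO_GFP. Fo and the stalk summed to 4612, 2816, 4095 and 2428 CPM per kilobase in KO_ITD, against 1649.8 and 1898 in KO_GFP. In all 3 the groups stood apart and KO_ITD 4 was the lowest leukemia. Complex II, the smallest complex, stood at 635, 511, 562 and 448 CPM per kilobase in KO_ITD, against 338 and 394 in KO_GFP. Leaving out KO_ITD 4, the retroviral library with most stromal and monocyte signal, gave 71 calls, where 21.2% of all genes were called. With thymus libraries alone 38 members rose, where 28.7% of all genes were called in either direction, and with the first set of deposited records alone, without KO_ITD 3 and 4, 69 rose, where 27.6% were.

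Among Fo subunits Atp5l, the g subunit at the interface of ATP synthase dimers, changed most. It had 276, 151, 419.8 and 233 CPM in KO_ITD leukemias, against 65.9 and 75.7 CPM in KO_GFP thymocytes (log2 fold change 1.93, SE 0.34, adjusted p = 0.00405). Every leukemia exceeded both controls, and the thymic KO_ITD 3 was highest. Atp5e, the epsilon subunit of the F1 central stalk, had 356, 175, 321 and 149.5 CPM in KO_ITD, against 72.8 and 79.8 CPM in KO_GFP (log2 fold change 1.71, SE 0.34, adjusted p = 0.00749). Atp5g2 is 1 of 3 genes whose mature product is the c subunit of the Fo ring. Its levels were 389, 189.9, 314 and 153 CPM in KO_ITD and 79.1 and 93 CPM in KO_GFP (log2 fold change 1.60, SE 0.32, adjusted p = 0.00773). The same protein is made from Atp5g1, which rose by 1.43 on the log2 scale (adjusted p = 0.00326), and from Atp5g3, which rose by 0.73 (adjusted p = 0.0471) but stood at -0.08 with the length offsets. The catalytic pair moved less: Atp5a1 had a log2 fold change of 0.46 and Atp5b of 0.39, and neither passed.

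In complex III, Uqcrq and Uqcr11, both small accessory subunits, changed most. Uqcrq had 149, 82.6, 189 and 100.2 CPM in KO_ITD, against 33.2 and 44.6 CPM in KO_GFP (log2 fold change 1.74, SE 0.33, adjusted p = 0.00596). Uqcr11 had 165, 82.4, 164 and 107 CPM in KO_ITD, against 36 and 41.8 CPM in KO_GFP (log2 fold change 1.74, SE 0.30, adjusted p = 0.00414). For both genes the 2 leukemias at the top were KO_ITD 1 from marrow and KO_ITD 3 from thymus, and no leukemia reached down to a control. The Rieske iron-sulfur protein Uqcrfs1, which carries electrons to cytochrome c1, rose less (log2 fold change 0.62, SE 0.18, adjusted p = 0.0304). Uqcrc2, a core protein without a redox centre, was the 1 subunit of the complex that did not pass (log2 fold change 0.66, adjusted p = 0.0538).

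In complex I the accessory subunit Ndufb8, a part of the membrane arm, had 217, 96.1, 253 and 136 CPM in KO_ITD, against 52.1 and 59.5 CPM in KO_GFP (log2 fold change 1.65, SE 0.41, adjusted p = 0.017). Ndufb9, its neighbour in role, had 276, 129, 203 and 115 CPM in KO_ITD, against 56.8 and 73.4 CPM in KO_GFP (log2 fold change 1.47, SE 0.32, adjusted p = 0.0104). The assembly factor Ndufaf6 was scarce, at 14.4, 8.08, 12.1 and 6.43 CPM in KO_ITD and 2.81 and 3.44 CPM in KO_GFP (log2 fold change 1.71, SE 0.49, adjusted p = 0.0297). Among core subunits, which hold the flavin and iron-sulfur clusters, Ndufv2 rose by 1.11, Ndufs7 and Ndufv1 by 0.75 and Ndufs3 by 0.72 on the log2 scale. Ndufs1, the largest of them, had 149.8, 141, 124 and 86.6 CPM in KO_ITD and 117 and 126 CPM in KO_GFP, values that overlap (log2 fold change 0.05, adjusted p = 0.899).

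In complex II 3 of 4 subunits had positive fold changes, and Sdha did not. Sdhb averaged 163 CPM per kilobase in KO_ITD, against 109 in KO_GFP. Sdhd, a membrane anchor that binds ubiquinone, had 258, 173, 254 and 199.8 CPM in KO_ITD, against 99.7 and 119 CPM in KO_GFP (log2 fold change 1.01, SE 0.20, adjusted p = 0.00777), and the other anchor, Sdhc, rose by 0.55. The flavoprotein Sdha, which oxidises succinate, had 345, 362, 236 and 229 CPM in KO_ITD and 284 and 303 CPM in KO_GFP. Its log2 fold change was -0.0034 with an SE of 0.21, and the marrow and thymus leukemias lay on either side of the controls. The marrow leukemias are in the first set of deposited records and the thymus ones in the later set. Tissue and set cannot be told apart here.

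**Figure D3:**
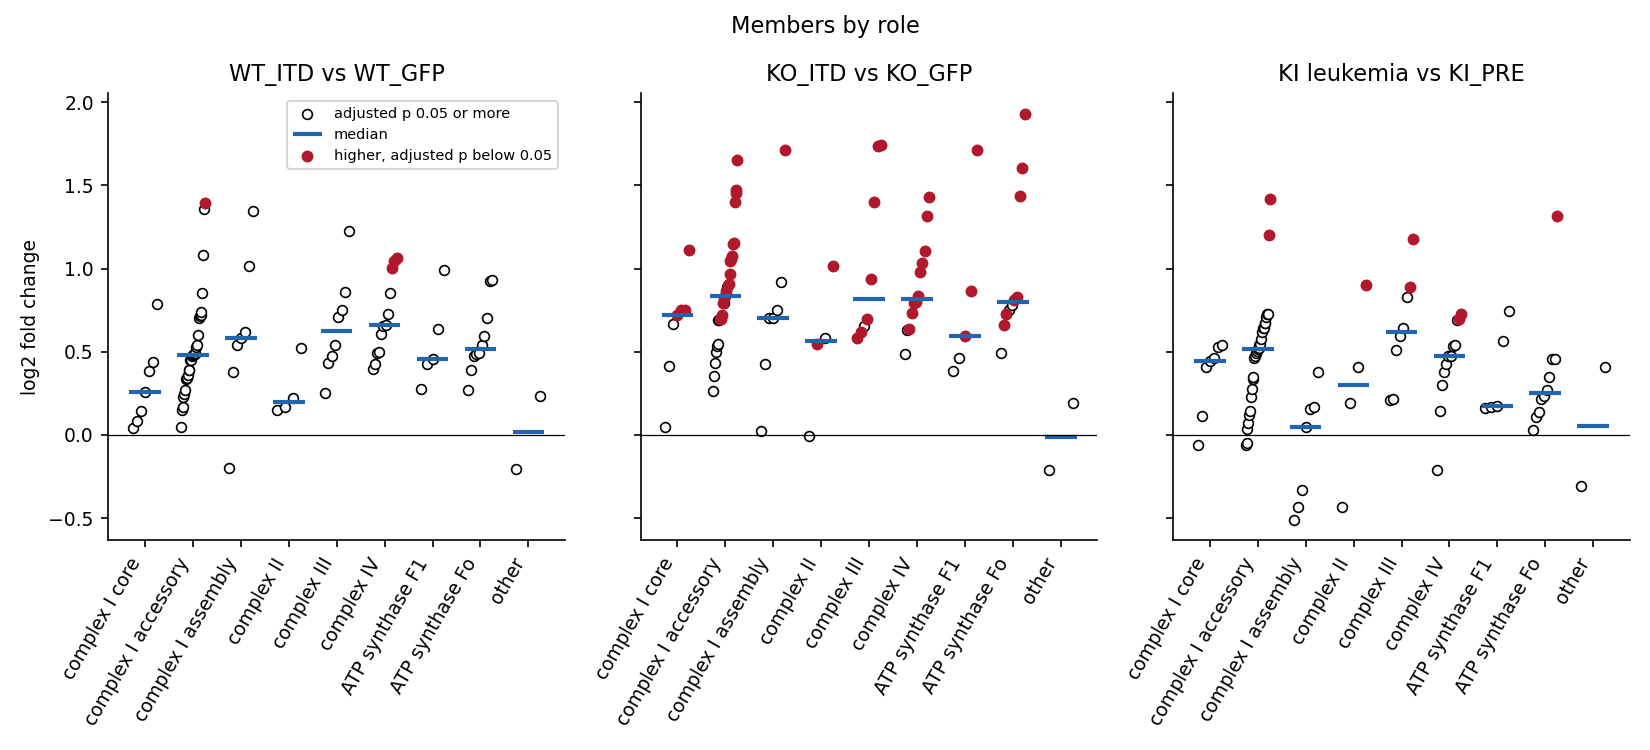
Log2 fold change (vertical axis) of tested members by role (horizontal axis) in 3 comparisons, without the 6 tested tissue-restricted complex IV subunits; filled points passed adjusted p below 0.05 and blue lines are medians. Of the members, 4 passed in WT_ITD against WT_GFP, 53 in KO_ITD against KO_GFP (Cox4i2 is not drawn) and 8 in knock-in leukemia against pre-leukemic marrow, and none was called lower in these 3.

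On the wild-type Dnmt3a background fewer members passed. In WT_ITD against WT_GFP 4 rose and none fell, where 2.24% of all genes were called in either direction. The median of the members was 0.49, against 0.03 over all genes, and 86 of 90 were positive, against 51.5% of all genes; the exceptions were Atp5sl, Cox6a2, Cox6b2 and Ndufaf3. Of the members, 69 did not overlap with WT_ITD higher, which 20.9% of all genes did, and 1.35% of all genes were called higher. The 4 were 3 complex IV subunits and 1 of complex I. Cox5b, a zinc-binding subunit, had 129, 96.5 and 111 CPM in WT_ITD leukemias, against 54.5 and 57.6 CPM in WT_GFP thymocytes (log2 fold change 1.00, SE 0.19, adjusted p = 0.0158). Cox5a had 155, 146 and 156 CPM in WT_ITD, against 77 and 68.4 CPM in WT_GFP (log2 fold change 1.07, SE 0.25, adjusted p = 0.0468). Cox8a, the general form of the smallest subunit, had 164, 154 and 178 CPM in WT_ITD, against 81.7 and 78.8 CPM in WT_GFP (log2 fold change 1.04, SE 0.19, adjusted p = 0.0139). In each case the controls sat close together and all 3 leukemias lay above them. Ndufa10, an accessory subunit of complex I, had 176, 167 and 116 CPM in WT_ITD, against 58.6 and 58.2 CPM in WT_GFP (log2 fold change 1.39, SE 0.26, adjusted p = 0.0146). With length offsets only Ndufa10 passed (1.33% of all genes were called higher), and the median became 0.14, against 0 over all genes. With those offsets the median in KO_ITD against KO_GFP was lower, at 0.08, so the order of the 2 backgrounds did not hold. Without WT_GFP 1 or WT_GFP 2, which leaves 1 control library, the member calls were lost, and fewer of all genes passed. The median of the members was then 0.51 and 0.48, against 0.04 and 0.05 over all genes. Leaving out WT_ITD 1 left no call, where 0.801% of all genes were called. Thymus libraries alone left 1 call, where 2.08% of all genes were called. Beside this, 13 erythroid markers summed to 342 to 1234 CPM in WT_ITD, against 151 to 224 CPM in WT_GFP, without a call, 9 stromal markers to 3.86 to 116 CPM in WT_ITD and 7.24 to 8.95 CPM in WT_GFP, and of 13 double-positive thymocyte markers Cd4 fell; their part was not tested.

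All 4 of these genes also passed in KO_ITD against KO_GFP: Ndufa10 at 1.06, Cox5a at 0.84, Cox8a at 0.74 and Cox5b at 0.64. With the length offsets Cox8a turned to -0.14 in that comparison, and none of the 4 passed there. The sign of Cox6b1, a subunit at the face toward the intermembrane space, also turned, to -0.14 with the offsets from 0.80 without them.

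Whether deletion of Dnmt3a itself went with a change in these genes was asked in 3 ways. In KO_ITD against WT_ITD no member passed (0.49% of all genes did), and in KO_GFP against WT_GFP none did (0 of all genes). In the test of the difference between the 2 comparisons of FLT3-ITD leukemia with GFP thymocytes none did (0 of all genes). At an unadjusted p below 0.05 the counts were 16, 1 and 6 of 90 members, where 20.3%, 0.477% and 5.4% of all genes were below it. DESeq2 called 8, 0 and 0 members, where it called 8.31%, 0.0774% and 0.516% of all genes, so the 8 are close to the share of all genes, and limma voom called none in any of the 3. The medians were 0.20, -0.10 and 0.33, and 73, 29 and 71 members were positive, against 54.7%, 45.7% and 53.9% of all genes. With length offsets the first turned to -0.07 and the third became 0.04, against 0.03 over all genes, and the second turned to 0.01 without KO_GFP 1. Leaving out KO_ITD 2 gave 2 calls in KO_ITD against WT_ITD, where 4.14% of all genes were called. The larger number of calls on the deleted background thus came without a detectable difference between the backgrounds at this number of libraries.

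In the knock-in model 8 of the 90 members rose in leukemia against pre-leukemic marrow and none fell, where 9.38% of all genes were called in either direction and 5.29% were called higher. The median was 0.45, against 0.0024 over all genes, and 80 members were positive, against 50.1% of all genes. Of the members, 49 did not overlap with leukemia higher, which 16.9% of all genes did. Nonmember genes under 750 bases had a median of 0.43, and members of that length 0.51. With length offsets 6 rose, where 4.6% of all genes did, Ndufa4, now placed in complex IV, fell by 0.68, and the median became 0.07. Leaving out KI_PRE 2 ended all 8 calls, where 1.48% of all genes were called. Without KI_PRE 1 or KI_PRE 3, 2 and 3 members passed, where 2.26% and 2.92% of all genes did. Without KI_HET 2, which leaves 1 KI_HET library, fewer members passed, and their median was 0.39, against -0.04 over all genes. The KI_HET leukemias alone gave 8 calls, where 5% of all genes were called. Every leukemia here had ER-cre and no KI_PRE marrow did, so leukemia and Cre cannot be told apart.

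Ndufb8 changed most, with 176 CPM in the KI_KO leukemia and 268 and 359 CPM in the KI_HET leukemias, against 96.4, 90.5 and 103 CPM in KI_PRE marrow (log2 fold change 1.42, SE 0.37, adjusted p = 0.0321). Atp5l had 209.7 CPM in the KI_KO leukemia and 266 and 317 CPM in the KI_HET leukemias, against 112, 106 and 97.3 CPM in KI_PRE marrow (log2 fold change 1.31, SE 0.29, adjusted p = 0.0192). Uqcrq had 104 CPM in the KI_KO leukemia and 129 and 158 CPM in the KI_HET leukemias, against 58.8, 49.97 and 62 CPM in KI_PRE marrow (log2 fold change 1.18, SE 0.29, adjusted p = 0.0277). For all 3 the pre-leukemic marrows lay close together and KI_HET 2 was highest. Ndufv3, an accessory subunit beside the flavin site of complex I, had 105 CPM in the KI_KO leukemia and 81.5 and 153 CPM in the KI_HET leukemias, against 48.9, 47.3 and 51.1 CPM in KI_PRE marrow (log2 fold change 1.20, SE 0.23, adjusted p = 0.0119). It did not pass in WT_ITD against WT_GFP or in KO_ITD against KO_GFP. Sdhd had 226 CPM in the KI_KO leukemia and 302 and 313 CPM in the KI_HET leukemias, against 149, 129 and 168 CPM in KI_PRE marrow (log2 fold change 0.90, SE 0.19, adjusted p = 0.0143). Uqcrfs1 had 160.3 CPM in the KI_KO leukemia and 209 and 189 CPM in the KI_HET leukemias, against 94.9, 90.1 and 114 CPM in KI_PRE marrow (log2 fold change 0.89, SE 0.17, adjusted p = 0.00999). Again no leukemia overlapped the marrows. Cox7a2l, a factor that joins complexes III and IV and is known in C57BL/6 mice as a short form, had 237 CPM in the KI_KO leukemia and 383 and 372 CPM in the KI_HET leukemias, against 199.6, 229.8 and 158 CPM in KI_PRE marrow (log2 fold change 0.73, SE 0.19, adjusted p = 0.0328). Cox4i1 had 338 CPM in the KI_KO leukemia and 362 and 486 CPM in the KI_HET leukemias, against 268, 243 and 216 CPM in KI_PRE marrow (log2 fold change 0.70, SE 0.19, adjusted p = 0.04). These last 2 did not pass with length offsets. Sdha had a negative fold change that did not pass, with 269 CPM in the KI_KO leukemia and 318 and 243 CPM in the KI_HET leukemias, against 361, 341 and 418 CPM in KI_PRE marrow (log2 fold change -0.43, adjusted p = 0.174). Of 13 granulocyte markers 4 rose, and they summed to 3849 to 20449 CPM in these leukemias and 3047 to 4707 CPM in KI_PRE. Of 6 megakaryocyte markers 1 fell, and they summed to 67.5 to 114 CPM in the leukemias and 282 to 433 CPM in KI_PRE; the 9 monocyte markers, 1 of which rose, summed to 665 to 3172 CPM in the leukemias, against 219 to 459.5 CPM in KI_PRE. Of the 13 double-positive thymocyte markers 5 rose and 2 fell, at sums of 27.7 to 113 CPM in the leukemias and 39.3 to 51.7 CPM in KI_PRE. The part of these cells in the results was not tested.

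Of the 8 members that rose in knock-in leukemia, 7 had also risen in KO_ITD against KO_GFP: Atp5l, Cox4i1, Cox7a2l, Ndufb8, Sdhd, Uqcrfs1 and Uqcrq. They are 87.5% of the 8 and 13.2% of the 53, where 58.9% of all tested members had risen in KO_ITD against KO_GFP. Over all genes, the 192 called higher in both were 23.4% of the 820 called higher in knock-in leukemia and 12.6% of the 1520 called higher in KO_ITD. Whether the overlap among members exceeds their own share was not tested. The 2 comparisons share no library, and they differ in cell type, sorting and in how FLT3-ITD was introduced. What they contrast differs too. KO_ITD and KO_GFP differ in FLT3-ITD and as leukemia against thymocytes, with Dnmt3a f/f on both sides. Their donor marrow also differed, enriched for Sca-1 in KO_ITD and for ckit in KO_GFP. Some KO_ITD leukemias came from marrow, whereas KO_GFP came from thymus, and most expressed Ddx3y where KO_GFP expressed Xist. FLT3-ITD, leukemia and donor enrichment cannot be told apart in that comparison. Knock-in leukemia and KI_PRE both carry Flt3 +/ITD, and only the leukemias have ER-cre. Dnmt3a transcript was lower in those leukemias than in KI_PRE (log2 fold change -1.64, adjusted p = 0.00693 in the edgeR fit). Leukemia, Cre and the lower Dnmt3a cannot be told apart there. With length offsets, Atp5l, Sdhd and Uqcrq passed in both comparisons, at 0.97 and 0.85 for Atp5l, 0.55 and 0.62 for Sdhd, and 0.77 and 0.71 for Uqcrq, each time with the retroviral value first. These are from 3 complexes: Atp5l lies at chr9:44721331-44728825, Sdhd at chr9:50404445-50411954 and Uqcrq at chr11:53242450-53244333 in the deposited gene models on mm9, each on the minus strand. Atp5l has a pseudogene named after it in RefSeq, so its reads could be split in counting.

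**Figure D4:**
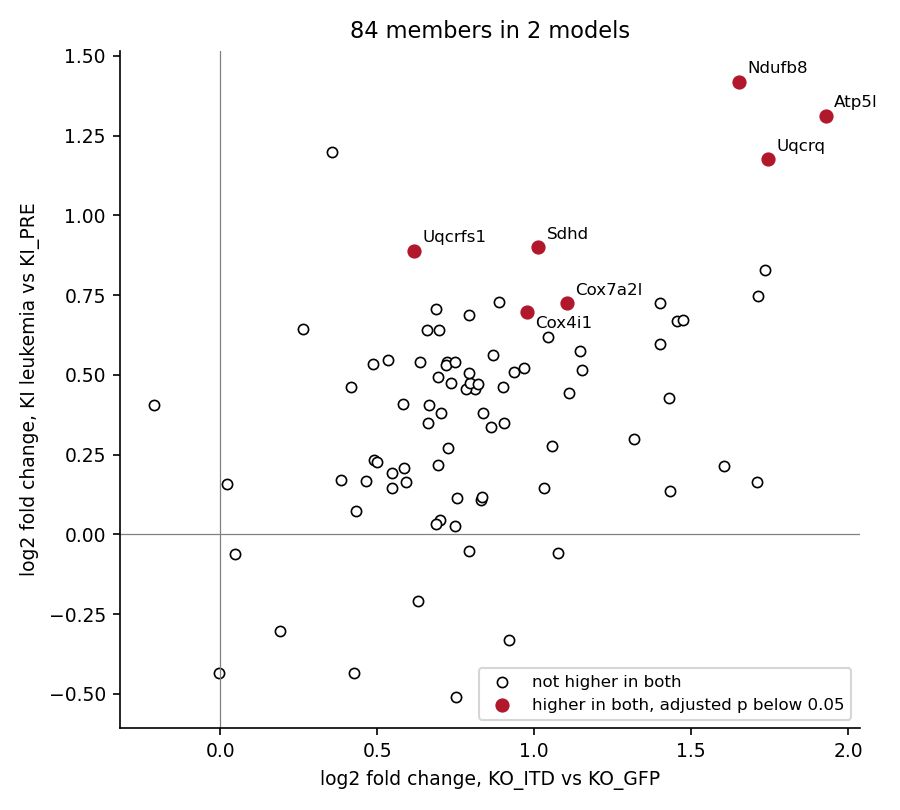
Log2 fold change of 84 members, the tested ones without tissue-restricted complex IV subunits, in KO_ITD against KO_GFP (horizontal axis) and in knock-in leukemia against pre-leukemic marrow (vertical axis). The 7 filled genes passed in both; Ndufb8, Atp5l and Uqcrq stand at the upper right, at 1.65, 1.93 and 1.74 on the horizontal axis and 1.42, 1.31 and 1.18 on the vertical one.

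Promoters of members that moved together are shown for 4 genes, because the nuclear respiratory factor NRF1, ETS factors such as GABPA (NRF2) and YY1 are known regulators of respiratory chain genes. Atp5l, Ndufb8 and Sdhd passed in KO_ITD against KO_GFP and in knock-in leukemia, and Cox8a in both retroviral comparisons. Each window runs from 250 bases before to 50 bases after the start (RefSeq, GRCm38.p6, minus strand, printed 5′ to 3′; coordinates differ from those of mm9). Capitals mark matches, on either strand, to the NRF1 palindrome (its match is the first capital run in Sdhd), to CCGGAAG for ETS factors or to AAGATGGCG for YY1, and no match printed here overlaps another. The windows are chr9:44920693-44920992, chr19:7217567-7217866, chr19:44555393-44555692 and chr9:50603800-50604099.
Atp5l: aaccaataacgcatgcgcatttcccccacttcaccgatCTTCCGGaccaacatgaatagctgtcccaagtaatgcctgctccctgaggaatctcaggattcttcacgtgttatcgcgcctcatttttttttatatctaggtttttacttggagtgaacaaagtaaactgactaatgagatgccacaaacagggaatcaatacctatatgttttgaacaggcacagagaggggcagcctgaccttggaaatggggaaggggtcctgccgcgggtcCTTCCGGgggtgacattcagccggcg
Cox8a: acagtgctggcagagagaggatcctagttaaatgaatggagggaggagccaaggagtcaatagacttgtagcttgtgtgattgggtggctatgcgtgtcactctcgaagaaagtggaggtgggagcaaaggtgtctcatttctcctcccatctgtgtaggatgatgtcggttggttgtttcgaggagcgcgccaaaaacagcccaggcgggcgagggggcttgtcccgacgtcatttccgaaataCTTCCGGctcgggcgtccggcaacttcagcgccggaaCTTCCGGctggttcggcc
Ndufb8: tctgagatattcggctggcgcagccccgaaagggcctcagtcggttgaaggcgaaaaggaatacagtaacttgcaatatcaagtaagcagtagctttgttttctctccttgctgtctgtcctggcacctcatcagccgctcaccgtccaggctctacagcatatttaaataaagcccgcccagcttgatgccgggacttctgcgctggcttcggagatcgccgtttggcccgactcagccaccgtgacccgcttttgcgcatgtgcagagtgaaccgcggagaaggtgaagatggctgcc
Sdhd: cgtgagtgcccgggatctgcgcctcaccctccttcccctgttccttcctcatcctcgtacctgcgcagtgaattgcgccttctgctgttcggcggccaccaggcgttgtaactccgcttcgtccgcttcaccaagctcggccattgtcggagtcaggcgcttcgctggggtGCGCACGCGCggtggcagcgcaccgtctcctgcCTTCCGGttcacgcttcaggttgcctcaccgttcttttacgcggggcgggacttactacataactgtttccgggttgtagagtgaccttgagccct

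Atp5l and Cox8a hold 2 ETS matches each, Sdhd holds 1 NRF1 and 1 ETS match, and Ndufb8 holds none of the 3. All 92 members were matched to RefSeq, 89 by symbol and the rest by synonym, and 76 had a window. Over their 82 windows NRF1 matched 24.4%, ETS 20.7% and YY1 11%, and any of the 3 matched 48.8%. Over all 32851 windows the shares were 4.6%, 8.86%, 1.4% and 13.6%. Members with and without a match had similar medians. In KO_ITD against KO_GFP the 38 tested members with a match had a median log2 fold change of 0.77 and 21 calls, and the 37 without had 0.75 and 23 calls. In knock-in leukemia the median was 0.41, with 2 calls, for members with a match and 0.46, with 4 calls, for those without.

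The isoforms of complex IV gave the widest changes between groups and the lowest levels. Cox4i2 (chr2:152579909-152590773 on mm9, plus strand), the form of subunit 4 known from lung and from cells short of oxygen, had 3.56, 2.47, 1.44 and 6.07 CPM in KO_ITD leukemias, against no count in either KO_GFP library. Its 135 counts in KO_ITD against 0 put it at least 37.4-fold higher over a floor of 3 counts for the group. That bound ran from 29.2 to 43.5 when each leukemia was left out, and the gene passed each time, also with length offsets. It had 1.82, 0.858 and 0.859 CPM in WT_ITD, against 0.2 and 0.324 CPM in WT_GFP (log2 fold change 2.14, adjusted p = 0.153). In the knock-in model it stood at 1.61 CPM in the KI_KO leukemia and 12.8 and 12.8 CPM in the KI_HET leukemias, against 5.51, 2.83 and 2.94 CPM in KI_PRE marrow, and did not pass. So the KI_HET leukemias were highest of all groups and the KI_KO leukemia lay below every pre-leukemic marrow. Its general counterpart Cox4i1 held 432, 290.4, 447 and 374 CPM in KO_ITD, against 199.96 and 192 CPM in KO_GFP (log2 fold change 0.98, SE 0.21, adjusted p = 0.0102). Per kilobase, Cox4i2 averaged 4.66 CPM in KO_ITD, next to 568 for Cox4i1, so it remained a small share of subunit 4 transcripts.

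Cox6b2 (chr7:4703396-4704696 on mm9, minus strand), known mainly from testis, separated the models. It had 1.04 to 7.52 CPM (median 4.38) in the 7 retroviral leukemias, against 22.8 CPM in KI_KO and 13.2 and 17.2 CPM in KI_HET leukemias (log2 fold change -2.20, SE 0.41, adjusted p = 0.00137), with no overlap. KI_PRE marrow, at 13.5, 12.3 and 18.2 CPM, overlapped the knock-in leukemias (log2 fold change 0.24, adjusted p = 0.808), and GFP thymocytes lay within the range of the retroviral leukemias, at 4.28 and 4.66 CPM in KO_GFP and 2.4 and 3.57 CPM in WT_GFP. The 3 other forms known from muscle, brown fat or hypoxic cells varied widely among leukemias. Ndufa4l2 had 0.382, 0.055, 2.04 and 8.01 CPM in KO_ITD and no count in KO_GFP, which puts it at least 24.1-fold higher without passing (adjusted p = 0.0639). Without KO_ITD 4 that bound is 7.21 and without KO_ITD 2 it is 41.6, where the gene passed (adjusted p = 0.0315, and from 0.00886 with DESeq2 to 0.291 without KO_GFP 1 over all alternatives). Cox8b had 0, 0.11, 1.56 and 2.91 CPM in KO_ITD and no count in KO_GFP, at least 10.8-fold higher without passing (adjusted p = 0.121), a bound of 5.15 without KO_ITD 4 and 17.9 without KO_ITD 2. Cox6a2 had 9.67, 0.769, 4.21 and 1.58 CPM in KO_ITD and 0.639 and 1.01 CPM in KO_GFP (log2 fold change 2.27, adjusted p = 0.193). Ndufa4l2 and Cox8b were highest in KO_ITD 4 and then KO_ITD 3, and Cox6a2 in KO_ITD 1. The list of 7 fat markers summed to 18.7 to 338 CPM in KO_ITD, highest in KO_ITD 4 and then KO_ITD 3, against 0.447 and 0.608 CPM in KO_GFP, where 5 of them were at 0. The list of 14 striated muscle markers summed to 19.1 to 101 CPM in KO_ITD, highest in KO_ITD 3 and then KO_ITD 4, against 20.4 and 21.1 CPM in KO_GFP, where 10 of them were at 0. The part of such cells in these values was not tested. Ndufa4l2 also shares 32 exon bases, and Cox6a2 69, with a gene on the other strand. In WT_ITD, 8 counts of Ndufa4l2 and 6 of Cox8b against none in WT_GFP put them at least 2.50-fold and at least 1.88-fold higher, but without WT_ITD 3, which left 2 and 0 counts, neither gave a fold. In knock-in leukemia 24 counts of Ndufa4l2 against none in KI_PRE put it at least 5.71-fold higher, or 4.27 to 6.68 without 1 leukemia. None of these passed. In KO_GFP Cox4i2 was at least 3.09-fold lower than in WT_GFP (0 against 13 counts), without passing. Between KO_ITD and WT_ITD, Cox6a2 had 138 against 16 counts, Cox8b 39 against 6 and Ndufa4l2 87 against 8, and none passed.

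**Figure D5:**
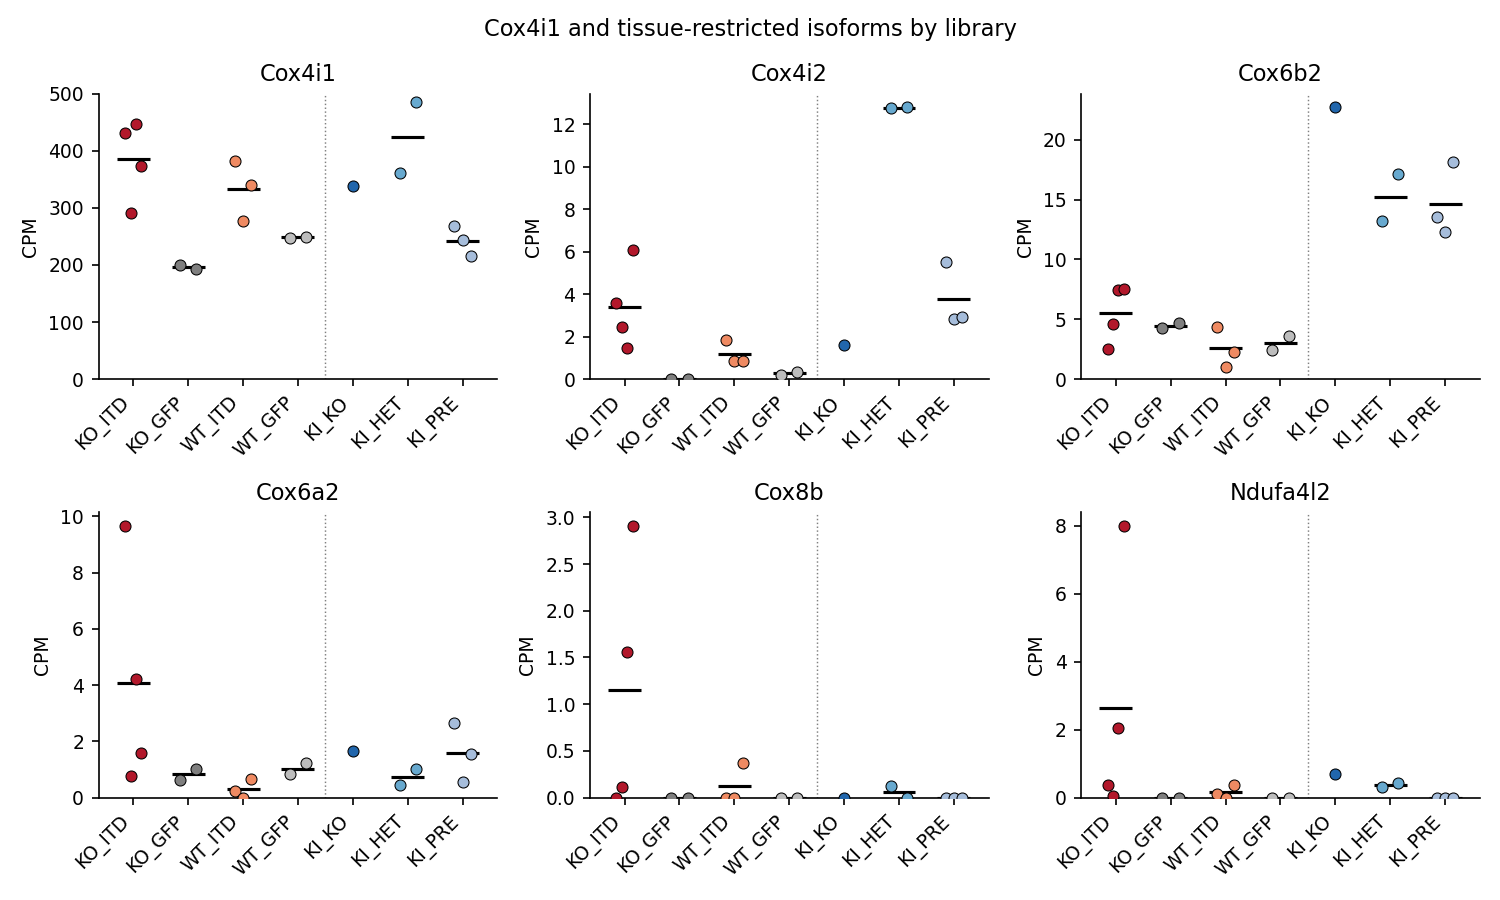
Level (CPM, points) of Cox4i1 and of 5 tissue-restricted isoforms in each library, with the group mean as a line where a group has more than 1 library. Cox4i2 is at 0 in both KO_GFP libraries and at 12.8 CPM in both KI_HET leukemias, Cox6b2 is higher in all knock-in libraries (12.3 CPM or more) than in any retroviral library (7.52 CPM or less), and Cox8b and Ndufa4l2 are highest in KO_ITD 4.

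Cox7a1, the heart and muscle form of subunit 7a, had 0.697 CPM in the KI_KO leukemia and 2.18 and 1.14 CPM in the KI_HET leukemias, against 0.178, 0.189 and 0.468 CPM in KI_PRE marrow, which was the widest change among members that missed the threshold there and had counts on both sides (log2 fold change 2.00, adjusted p = 0.0766). Its general counterpart Cox7a2 passed in KO_ITD against KO_GFP (log2 fold change 0.79). Cox6a1, the general form of subunit 6a, did not (log2 fold change 0.49), whereas Cox6b1 (0.80), Cox7b (1.32) and Cox8a (0.74) did. Ndufa4, counterpart of Ndufa4l2, had 0.63 and missed the threshold. Of all these general forms, Cox4i1 passed in knock-in leukemia and the others did not.

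Set side by side, retroviral and knock-in leukemias differed in 12 members, 7 higher and 5 lower in the retroviral ones, which is 13.3% of the members where 33.5% of all genes were called (15.6% higher and 17.9% lower). The median was 0.17, and 60 members were positive, against 53.1% of all genes. The models differ at once in cell type, sorting, tissue, virus, Cre, Dnmt3a genotype and, for most libraries, the set of deposited records. These cannot be told apart. The retroviral side includes the Dnmt3a +/+ WT_ITD leukemias, whereas each knock-in leukemia had ER-cre with Dnmt3a f/f or f/+. Dnmt3a transcript was higher on the retroviral side (log2 fold change 1.46). Ndufaf3 and Ndufaf1, assembly factors of complex I, were higher: Ndufaf3 had 19.2 to 28.4 CPM (median 22.2) in the 7 retroviral leukemias, against 13.3 CPM in KI_KO and 9.49 and 15 CPM in KI_HET (log2 fold change 0.90, SE 0.24, adjusted p = 0.0127). Atp5h, the d subunit of the stalk, had 194 to 436 CPM (median 340.4), against 185 CPM in KI_KO and 115 and 227 CPM in KI_HET (log2 fold change 0.84, SE 0.27, adjusted p = 0.0297), and here the groups overlap. Ndufs6, Ndufaf1, Atp5j2, Ndufa1 and Ndufa3 were the other 5 higher ones, with log2 fold changes of 0.76, 0.67, 0.61, 0.58 and 0.48. Besides Cox6b2, the lower ones were Cox4i2 (-1.68), Ndufb8 (-0.84), the assembly factor and arginine methyltransferase Ndufaf7 (-0.56) and Sdhd (-0.51). Ndufb8 and Sdhd, which passed in KO_ITD against KO_GFP and in knock-in leukemia, thus averaged higher in the knock-in leukemias. Here too the groups overlap: for both genes the KI_KO leukemia lay below KO_ITD 1 and KO_ITD 3. With length offsets 22 were higher and 5 lower, where 17% of all genes were called higher and 35.5% in either direction. A fit of the compared groups alone gave 1 call, where 20% of all genes were called. The later records alone gave none, where 7.71% were called. Leaving out KO_ITD 4 gave 24 calls, where 40.7% of all genes were called. Leaving out WT_ITD 1 or WT_ITD 3 gave 6 and 7, where 30.3% and 34.3% were called. Without KI_HET 2, which leaves 1 KI_HET library, fewer members passed, and their median was 0.17, against 0.11 over all genes. Among members that missed the threshold, Cox8b had a count ratio of 11.4 (95% counting interval 2.97 to 96.7), and the log2 fold changes of Ndufs5 and Cox6c were 0.71 and 0.64.

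Other genes of the pathway came from lists of known members. In KO_ITD against KO_GFP 6 of 30 further assembly factors rose and none fell, with Sdhaf1 (1.11) and Cox14 (1.06) at the top, and 3 of 18 enzymes of the tricarboxylic acid cycle rose, led by Suclg2 (1.40). Of 10 tested carriers 5 rose, among them the ADP/ATP carriers Slc25a5 (0.80) and Slc25a4 (0.61), which exchange the product of ATP synthase. Of 76 mitochondrial ribosomal proteins 30 rose and 1 fell, with a median of 0.74. These counts stand beside 9.8% of all genes called higher and a median of 0.19 over all genes, and beside 17.4% called higher and a median of 0.75 among nonmember genes of 750 to 1500 bases. Regulators of mitochondrial biogenesis did not move as a block: Myc rose by 2.03, whereas Polg (-1.33), Gabpb2 (-0.99), Polrmt (-0.86) and Nrf1 (-0.78) fell. In WT_ITD against WT_GFP the only calls in these lists were Myc (1.71) and Mrps15 (1.12). In knock-in leukemia none of the 30 assembly factors passed, 1 tricarboxylic acid cycle enzyme fell (Ogdh, -0.63), 1 carrier (Ucp2, 0.89) and 4 ribosomal proteins rose, and 4 regulators fell, among them Myc (-1.44). Myc encodes a transcription factor known to raise mitochondrial biogenesis. None of 17 cell cycle genes passed in any of these 3 comparisons.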

How the data were processed

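Polyadenylated RNA was measured in 17 libraries, extracted with the Qiagen AllPrep kit and prepared with the TruSeq kit, per the labels' protocols. The authors deposited 1 table of estimated counts of fragments per gene, not scaled for depth; the estimated transcript counts are a second deposited table. The submitters' processing notes name the build mm9 and the tools TopHat2 2.0.10, Cufflinks 2.1.1 (later records give no version) and Cuffdiff, versions 2.1.1 and 2.2.1. Neither the step that produced the table nor the use of strand is stated in those sources. For this reason 10 members that overlap another gene model and 10 with a RefSeq pseudogene named after them are uncertain.

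Of the nonzero estimated counts, 98.34% were whole within 0.001; all were rounded to whole numbers, which departs from the plan for raw counts. They were analysed with edgeR 4.0.16 in R 4.3.3: filterByExpr left 15508 genes, scaling used TMM factors (CPM divides by the scaled total), and 1 quasi-likelihood model with 7 group means was fitted to all 17 libraries. Contrasts were two-sided with Benjamini-Hochberg adjustment over all genes and a threshold of 0.05. KI_KO has 1 library, assumed to vary like the others; the knock-in leukemia mean weights its 3 libraries equally. A fold against 0 counts uses a floor of 3 counts over the group and covers counting error only. Values per kilobase use exon length of the deposited gene models. Alternatives were DESeq2 1.42.0, limma 3.58.1 and those in the closing section. The code was tested on simulated data. No 2 libraries of a group agreed within counting noise.

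Members and gene lists were chosen with earlier results of these data known. The text names all called members of a comparison, or the 8 largest rises and 8 largest falls with at least 5 CPM where more than 12 passed, the 3 largest changes not called, and the isoforms; others were chosen after their values were seen. The deposited FPKM files were not used. The highest and lowest levels within the complex I core are not reported here.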

Additional observations from a re-analysis of the deposited data

How the results depend on the processing

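Counts of members called kept within 1.5 times under RLE size factors, no low-count filter and limma voom in all 7 comparisons. DESeq2 called 18 members in WT_ITD against WT_GFP, 8 in KO_ITD against WT_ITD and 23 in knock-in leukemia, where it called 9.19%, 8.31% and 19.2% of all genes. Fits of the compared groups alone called 11 members in WT_ITD against WT_GFP, 1 in KO_ITD against KO_GFP and 5 in knock-in leukemia. They called 7.18%, 3.38% and 4.42% of all genes there. Between retroviral and knock-in leukemias such a fit called 1 (20% of all genes), and the later records alone called 0 (7.71%). Thymus libraries alone called 1 in WT_ITD against WT_GFP (2.08%). Length offsets called 1 in that comparison (2.36%), 11 in KO_ITD against KO_GFP (12.4%) and 27 between retroviral and knock-in leukemias (35.5%). Why length offsets moved these counts was not tested. They reversed the median of the members in KO_ITD against WT_ITD (-0.0704) and, in KO_ITD against KO_GFP, Cox6b1 (-0.14), Cox8a (-0.14) and Atp5g3 (-0.0816). Leaving out 1 library moved the median in KO_GFP against WT_GFP from -0.225 without KO_GFP 2 to 0.00755 without KO_GFP 1.

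Leaving out 1 library at a time gave 0 to 4 calls in WT_ITD against WT_GFP, 1 to 71 in KO_ITD against KO_GFP, 0 to 2 in KO_ITD against WT_ITD (2 without KO_ITD 2), 0 to 9 in knock-in leukemia and 4 to 24 between retroviral and knock-in leukemias; it gave 0 each time in KO_GFP against WT_GFP and in the test of the difference. The share of all genes called moved as well. It was 0.801% without WT_ITD 1 and 3.93% without WT_ITD 3 in WT_ITD against WT_GFP. In KO_ITD against KO_GFP it was 15% without KO_ITD 1 and 25.5% without KO_ITD 2. Fits without a GFP library, which leave 1 control library, called a smaller share than these in both comparisons. The lowest count in KO_ITD against KO_GFP came from such a fit. In knock-in leukemia the share was 1.48% without KI_PRE 2 and 5.68% without the KI_KO leukemia. Between retroviral and knock-in leukemias it was 30.3% without WT_ITD 1 and 40.7% without KO_ITD 4. In a fit with the replicate number as a block, the 7 counts were 4, 57, 0, 0, 0, 7 and 18. That fit called 3.66%, 15.7%, 0.49%, 0%, 0%, 9.79% and 35.3% of all genes. Deviations of same-numbered libraries correlated at r of -0.29 to 0.37 over 33 pairs, with 3 over 0.1. The pairs of WT_ITD and KO_ITD stood at 0.16, 0.37 and 0.08. With so few libraries per group, these values cannot show whether the numbers pair libraries. Of the values of named genes under all alternatives, 2041 kept direction and side of the threshold, 173 lost the threshold, 43 gained it and 3 reversed. Depth limits the rare isoforms: Cox7b2 and Cox8c could not be tested, and Cox8b and Ndufa4l2 rest on few counts.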

Other observations

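The deposited transcript table splits Ndufv3 between a model of 1579 bases and one of 487 bases. The longer model held 58.8% of the gene's estimated counts in the KI_KO leukemia and 49.2% and 56.8% in the KI_HET leukemias, against 38.9% to 41.9% in the 3 KI_PRE marrows, so the groups did not overlap. In the retroviral model the longer model held 42.3% to 59.8% in KO_ITD and 49.9% to 53.5% in WT_ITD leukemias, and 53.8% to 60.04% in KO_GFP and 54.7% to 60.7% in WT_GFP thymocytes. The WT_ITD range lay below both GFP ranges, and the KO_ITD range overlapped them. Atp5g1 was split between models of 805 and 798 bases, and the 805-base model held 19.05% in KI_KO and 21.1% and 24.9% in KI_HET, against 14.1% to 18.4% in KI_PRE. These shares are estimates by the authors' software and were not tested.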
